A study of Columba livia with 9 samples.

Results

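The first growth phase of the squab bursa of Fabricius (BF) was described by comparing the 13-day libraries with the 1-day libraries, 6 of the 9 libraries of the study. The libraries were chosen by the age in their labels, 3 at 1 day (1D) and 3 at 13 days (13D). Each came from the BF of a different female White King squab of *Columba livia*. The labels name no engineered allele and no treatment, and the groups differed in age. Total RNA was sequenced, and the expression of 13072 mRNAs and 19129 long noncoding RNAs (lncRNAs) was available for every library. The other 3 libraries, from 26-day squabs, entered the scaling and the alternative fits that are named as such.

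The BF is a lymphoid pouch of the bird hindgut in which B cells multiply and diversify their immunoglobulin genes, mainly by gene conversion as known from the chicken. It forms in the embryo from cloacal epithelium and the mesenchyme around it, and blood-borne B cell precursors fill epithelial buds that grow into follicles. The follicles sit in connective tissue under a folded epithelium, with a coat of smooth muscle, vessels and nerves.

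Values are in TPM, the share of transcripts in a library after correction for transcript length. Each library was divided by its median over the 10027 mRNAs above 0.5 TPM in all 9 libraries and brought back to the common median of 12.9 TPM, and these values are called scaled TPM here. The divisors, relative to that common median, were 0.885 to 1.54 at 1D and 0.837 to 1.38 at 13D. One lncRNA, G17924, took 13.9% to 28.9% of all TPM in the 6 libraries, and the mRNAs took 44.3% to 59.7%. Between 11299 and 12493 mRNAs per library exceeded 0.5 TPM. Read counts per feature were not part of the tables, so the reads behind each value are unknown. The paper lists mapped reads per library, and 1D replicate 2 had the fewest and the lowest mapped share. The root mean square log2 difference between libraries over the mRNAs was 0.65 to 0.81 within 1D, 0.45 to 0.52 within 13D and 0.76 to 0.98 between the stages. The 1D libraries were thus the more varied, and 1D replicate 3 lay nearest to the 13D libraries.

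The BF of 13-day squabs had higher levels of genes of B cells, of cell division and of DNA repair than that of 1-day squabs, and lower levels of genes of connective tissue, smooth muscle, nerve, patterning and growth factor signalling. The called changes were mostly falls: 984 mRNAs were lower at 13D and 257 were higher. A differentially expressed (DE) mRNA was one with an adjusted p under 0.05 (limma on log2 scaled TPM, Benjamini-Hochberg over all 13072 mRNAs) and an absolute log2 fold change over 1. DE mRNAs made up 9.49% of those tested, 1.97% higher and 7.53% lower, and these shares are the background for every count below. The gene lists were chosen with earlier results of these data known. A list count set beside these shares is thus a description and not an independent contrast. The libraries of the stages did not overlap for any of the 1241 DE mRNAs, as was the case for 37.8% of all mRNAs, 16.8% with higher and 21.0% with lower 13D values. Over all mRNAs the median log2 fold change was -0.00, a value that the division by library medians favours. It was -0.08 under median-of-ratios scaling. In whole tissue, a changed share of the cells of a type and a changed amount of RNA per cell cannot be told apart. This holds for each group of genes that follows. Scaled TPM is a level relative to the other mRNAs of a library, so a fall is not a lower amount per BF. The amount per BF was not tested. An exact permutation test of 3 against 3 libraries cannot give a p below 0.1. The p-values here rest on a model, in which the spread within the stages is moderated by the spread shared across mRNAs.

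The number of DE mRNAs depended on the libraries. It was 419 without 1D replicate 1, 1274 without 1D replicate 2 and 1742 without 1D replicate 3, and 274, 142 and 333 without 13D replicates 1, 2 and 3 in turn. Every fit without a library has fewer samples to estimate the spread from. Falls were 71.2% to 82.4% of the calls in these fits. No DE mRNA could turn its direction there, since the stages did not overlap for any of them. Of the 138 named features called with all 6 libraries, 35 (without 13D replicate 2) to 122 (without 1D replicate 3) kept their call.

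**Figure D1:**
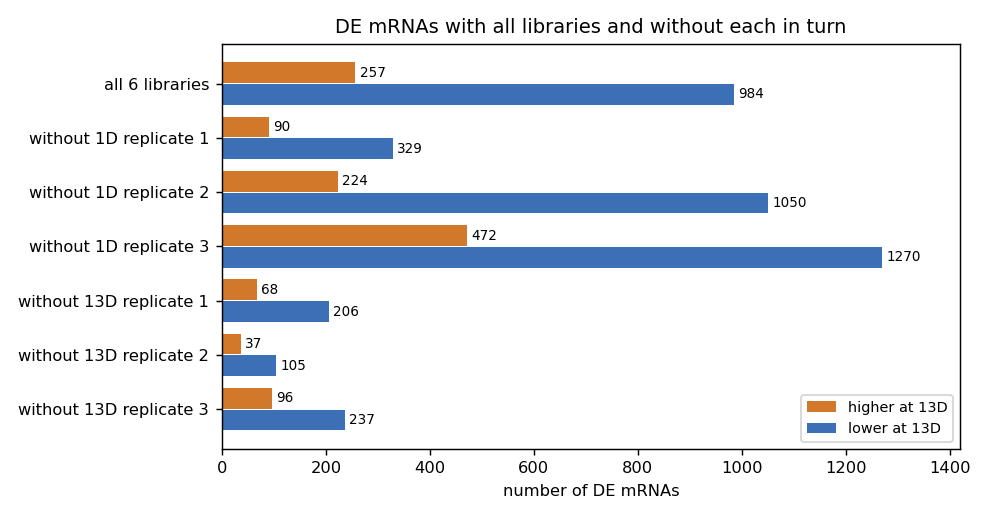
Number of DE mRNAs (x axis) higher (orange) or lower (blue) at 13D, with all 6 libraries and with each library left out in turn (rows). The falls outnumber the rises in every row, from 984 against 257 with all libraries to 105 against 37 without 13D replicate 2.

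The largest rises among mRNAs with a gene symbol were led by *VSIG1* (GeneID:102086421), which encodes a cell surface protein of the immunoglobulin superfamily known in mammals from the stomach epithelium. It stood at 0.889, 0.205 and 0.111 scaled TPM at 1D and 11.9, 23.04 and 14.3 at 13D. The 13D values were far above all 1D values, with a log2 fold change of 4.27 ± 0.39 (SE) and an adjusted p of 0.00385. *IL12RB2*, the signalling subunit of the interleukin 12 receptor, had 0.247, 0.0998 and 0.265 scaled TPM at 1D and 8.71, 9.39 and 5.83 at 13D, so that it was under 0.5 in each 1D library and over 5 in each 13D library. Its log2 fold change was 3.57 ± 0.27, with values at 1D below the pseudocount of 0.5, which limits how far this figure can be read as a ratio. *FLT3*, a receptor tyrosine kinase of blood progenitors and dendritic cell precursors, rose by 2.96 on the log2 scale from 3.35, 2.88 and 7.23 to 48.6, 25.6 and 36.6 scaled TPM.

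Among the other leading rises, *ACTR3B*, of the actin-nucleating ARP2/3 complex, had 50.6, 39.9 and 40.9 scaled TPM at 1D and 229, 210.1 and 296 at 13D. The actin nucleator *FMN2* (log2 fold change 2.36), the actin-binding *NEBL* (2.50) and the RNA-binding splicing regulator *RBM24* (2.92) rose as well. *RBM24* is known mainly from heart and skeletal muscle of other vertebrates, and its 6 values were 16.2, 7.14 and 13.3 at 1D and 85.04, 97.2 and 91.03 at 13D. The protein kinase *PRKCQ* (2.41), *THEMIS* (2.37), the adaptor *SLA* (2.30) and *TAGAP* (2.28) all rose, and in mammals they are best known from T cells and thymocytes. *THEMIS* had 2.67, 1.99 and 2.55 scaled TPM at 1D and 11.3, 13.3 and 19.6 at 13D, again without overlap. Beside these, *TMEM233* rose by 2.23. The largest rises in level among DE mRNAs with a symbol included *CXCR4*, *ACTR3B*, *NMRK2* (a nicotinamide riboside kinase, 87.1 ± 27.1 to 259 ± 66.2 scaled TPM, mean ± SD, n = 3 each), *NCOA7* (120.2 ± 21.3 to 291 ± 23.4) and the deadenylase *CNOT6* (166 ± 20.03 to 333 ± 11.7).

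**Figure D2:**
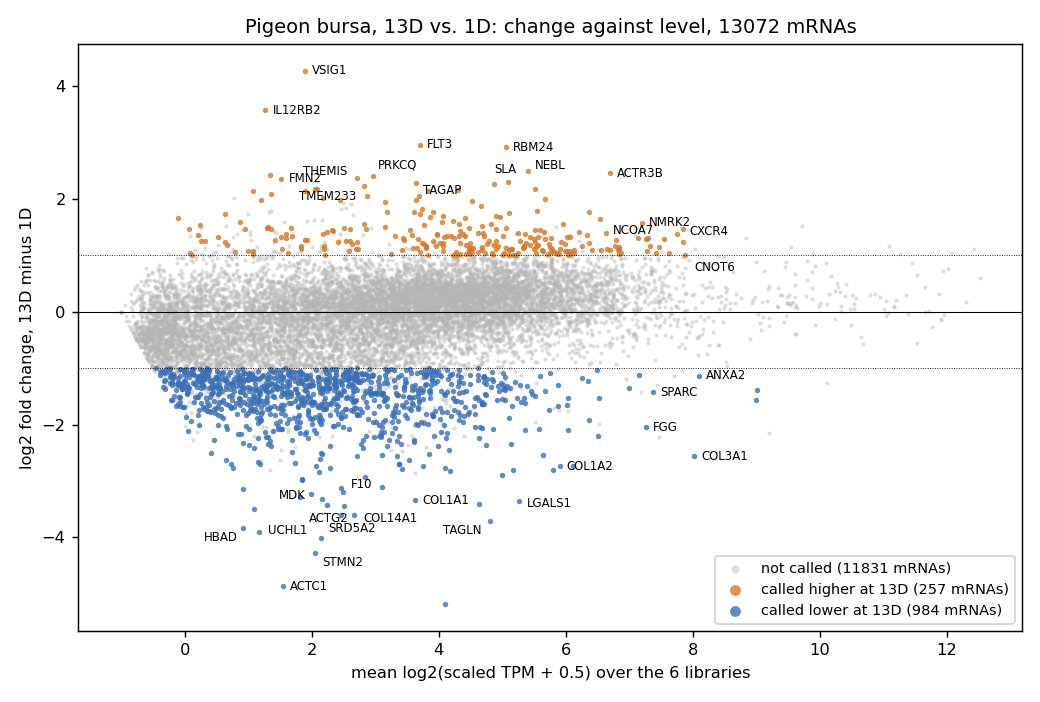
Log2 fold change of 13D over 1D (y axis) against the mean log2(scaled TPM + 0.5) over the 6 libraries (x axis) for the 13072 mRNAs. Orange and blue points are the 257 DE mRNAs higher and the 984 lower at 13D, dotted lines mark a log2 fold change of 1 in each direction, and the named mRNAs have the largest changes in fold or level. The falls reach to larger folds than the rises: 138 falls and 25 rises exceeded a log2 fold change of 2.

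Genes of the B lineage had higher scaled levels at 13D almost throughout. Of 26 measured B lineage genes, 10 rose and none fell, and the median log2 fold change of the list was 0.99. The libraries of the stages did not overlap for 22 of the 26, with higher values at 13D. With deposited TPM 5 rose, and the list took 0.145% to 0.212% of all TPM at 1D and 0.204% to 0.362% at 13D, where 13D replicate 3 was below 1D replicate 1. *VPREB3*, a partner of immunoglobulin heavy chains in early B cells of mammals, had 4.22, 3.72 and 12.3 scaled TPM at 1D and 25.1, 22.4 and 31.3 at 13D and the largest rise of the list, 2.06 ± 0.41 (adjusted p = 0.0209). *TNFRSF13C*, the BAFF receptor that carries survival signals, had 1.08, 4.12 and 2.27 scaled TPM at 1D and 12.3, 9.21 and 9.64 at 13D, with a log2 fold change of 1.99 ± 0.39. For *CD83*, a surface protein of activated B cells and dendritic cells, the values were 14.4, 15.97 and 9.04 at 1D and 58.4, 40.7 and 47.2 at 13D, a rise by 1.88 ± 0.25. All 3 genes were higher in every 13D library than in any 1D library.

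Transcription factors of the lineage moved the same way. *BCL6*, a repressor needed for germinal centre B cells in mammals, stood at 30.5, 21.8 and 37.8 scaled TPM at 1D and 56.1, 72.7 and 83.7 at 13D, with a log2 fold change of 1.24. *CIITA*, the master regulator of MHC class II genes, was at 9.08, 8.36 and 5.82 and then at 30.6, 16.3 and 14.5, and it rose by 1.29. *IKZF3* (1.09) and *BACH2* (1.04) also rose, as did the chemokine receptor *CXCR5* (1.07), the kinase *BTK* (1.19) and the phospholipase *PLCG2* (1.09). *CD79B*, the signalling chain of the B cell receptor, had 115, 194 and 254 scaled TPM at 1D and 315, 372 and 486 at 13D without overlap, yet its log2 fold change of 1.11 ± 0.33 missed the threshold (adjusted p = 0.0604). *PAX5*, the factor that fixes B cell identity, likewise missed it (1.04 ± 0.29, adjusted p = 0.0525). The single member with a negative value was *JCHAIN*, the joining chain of secreted immunoglobulins, with 413, 375 and 371 scaled TPM at 1D and 234, 244 and 209 at 13D, and its difference of -0.76 was under the fold threshold. These last names were chosen after their values were seen. The count of risen B lineage genes became 1, 7 and 14 without 1D replicates 1, 2 and 3 in turn, and 1, 1 and 1 without 13D replicates 1, 2 and 3.

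**Figure D3:**
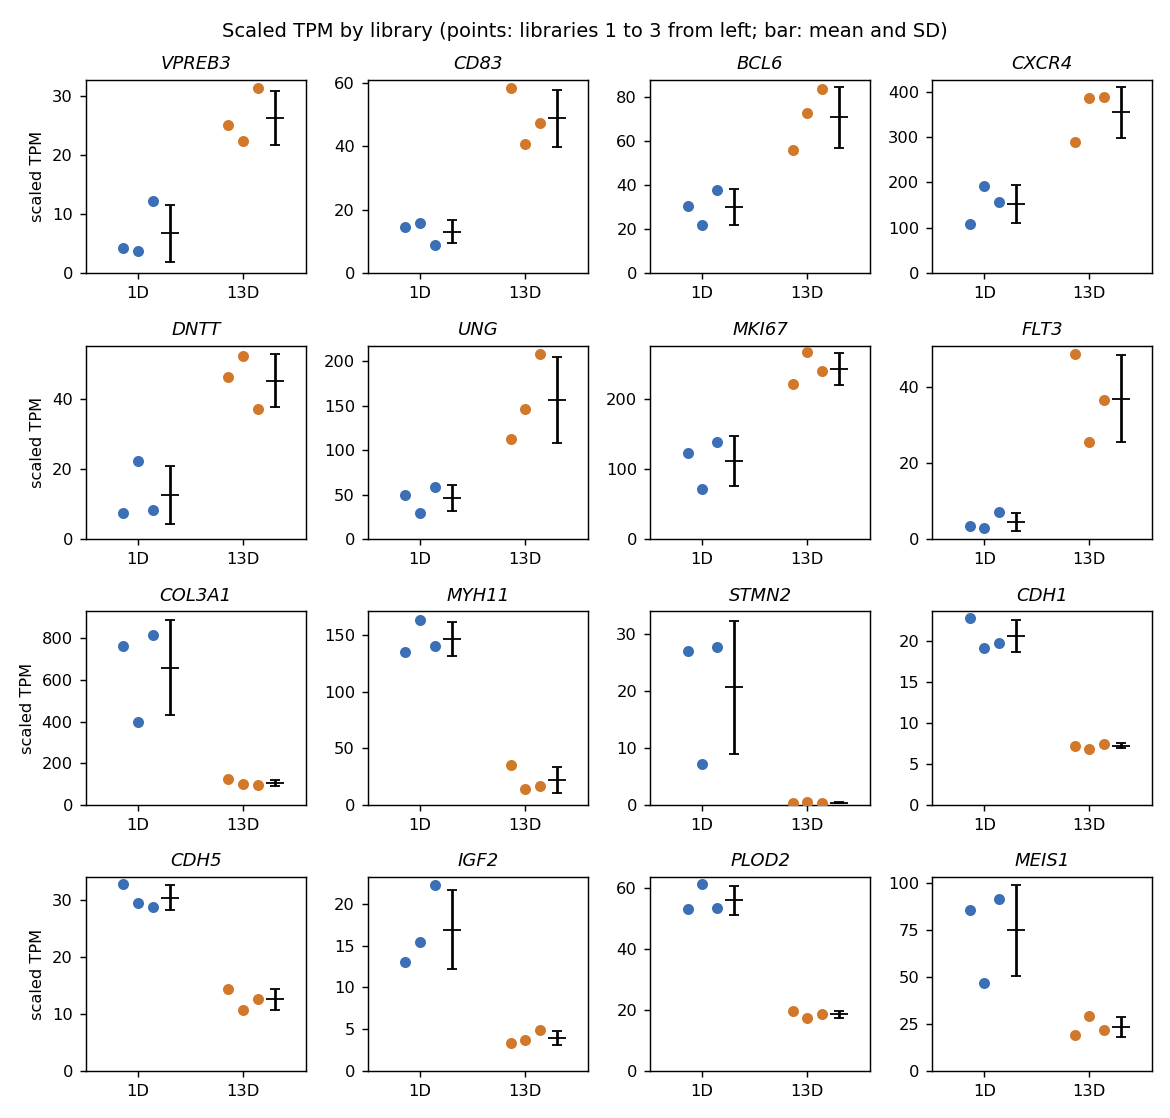
Scaled TPM (y axes, from 0) of 16 genes in each 1D (blue) and 13D (orange) library, with the mean and SD of 3 libraries as black bars. The first 8 genes were higher and the last 8 lower at 13D, and the libraries of the stages overlap for none of them.

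The pathway downstream of the B cell receptor was also higher. Of 28 measured members, 7 rose and none fell, with a median log2 fold change of 0.74. *PIK3CD*, the phosphoinositide 3-kinase subunit of leukocytes, had 16.1, 14.2 and 31.9 scaled TPM at 1D and 52.8, 71.8 and 44.9 at 13D and rose by 1.49 ± 0.32 (adjusted p = 0.0259). *RASGRP3*, which activates RAS in B cells, went from 84.5, 63.3 and 132 to 229.7, 232 and 202 scaled TPM, and *NFATC1*, a calcium-dependent transcription factor, from 5.63, 7.54 and 6.56 to 16.4, 21.8 and 12.7. In each of these genes the lowest 13D library exceeded the highest 1D library. *LAT2*, *BTK*, *PLCG2* and *PRKCB* made up the rest of the risen members, by 1.15, 1.19, 1.09 and 1.04. Leaving out 1D replicates 1, 2 and 3 one by one gave 0, 6 and 8 such members, and leaving out the 13D replicates likewise gave 0, 0 and 1.

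Antigen presentation genes moved less. Among 15 measured genes 2 rose, *CD83* and *CIITA*, and the median log2 fold change was 0.36. *CD74*, the invariant chain that accompanies MHC class II, had 738, 1131 and 958 scaled TPM at 1D and 1296, 1321 and 1740.0 at 13D, higher in each 13D library than in any at 1D. Its log2 fold change of 0.63 ± 0.34 did not pass the test (adjusted p = 0.245).

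Genes of DNA repair and of immunoglobulin gene diversification were higher at 13D. Of 38 measured members 7 rose and none fell, with a median log2 fold change of 0.55 and 24 members without overlap. *DNTT*, the terminal transferase that adds nucleotides at V(D)J joints in mammals, stood at 7.54, 22.2 and 8.24 scaled TPM at 1D and 46.3, 52.5 and 37.3 at 13D and rose by 1.96 ± 0.39 (adjusted p = 0.0209). *UNG*, the uracil glycosylase that acts after deamination of immunoglobulin genes, had 49.2, 29.9 and 58.9 scaled TPM at 1D and 113, 147 and 209 at 13D and rose by 1.76 ± 0.31. *BRCA2*, which acts in homologous recombination, went from 24.03, 13.03 and 16.9 to 52.6, 44.5 and 50.6. All 3 were separated between the stages. *RAD54L* (1.37), a motor protein of homologous recombination, the mismatch repair gene *MSH6* (1.22) and the translesion polymerase *POLH* (1.21) were also among the risen members. With one library fewer the count was 2, 3 and 8 (1D replicates 1, 2 and 3 left out in turn) or 1, 0 and 0 (13D replicates 1, 2 and 3).

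Cell division genes showed the same direction with more spread at 1D. Of 49 measured members 7 rose and none fell, and the median log2 fold change was 0.82. This median was 0.47 without 1D replicate 2, the library with the lowest mapped share. Higher 13D values without overlap were found for 25 members, and 4 had negative values, 2 of them without overlap. With deposited TPM 4 rose. The list took 0.102% to 0.285% of all TPM at 1D and 0.283% to 0.413% at 13D, where 13D replicate 3 was below 1D replicate 1. *MKI67*, a marker of dividing cells, had 123, 71.04 and 139 scaled TPM at 1D and 221, 266 and 239.6 at 13D, *KIF11*, a spindle motor, had 134, 87.8 and 141 scaled TPM at 1D and 276, 244 and 272 at 13D, and *TOP2A*, a topoisomerase of dividing cells, had 107, 73.4 and 154 scaled TPM at 1D and 208, 226 and 246 at 13D. In all 3 genes 1D replicate 2 was the lowest library. The log2 fold changes were 1.17 ± 0.27, 1.15 ± 0.23 and 1.08 ± 0.28. *MYBL2* (1.34), *CCNE2* (1.17), *CENPE* (1.07) and *TTK* (1.002) also rose. The mean log2 level of the whole list ranged from 3.81 to 4.98 in the 1D libraries and from 5.05 to 5.22 in the 13D libraries. When 1D replicates 1, 2 and 3 were left out in turn, the count was 0, 0 and 24, and for 13D replicates 1, 2 and 3 it was 0, 0 and 0. Without 1D replicate 2 or 3, 1 member was called lower.

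Markers of T cells did not follow those of B cells. None of 13 measured T lineage genes was called (limma; 3 had an unadjusted p under 0.05, and 2 an adjusted p under 0.05 with a log2 fold change smaller than 1), and the median log2 fold change was -0.01, but 0.04 without scaling and 0.12 without 13D replicate 3. It was -0.18 without 1D replicate 2 and -0.16 without 13D replicate 2. Under median-of-ratios scaling, and likewise with a smaller pseudocount, 1 member was called lower. *GATA3*, a factor of T helper and innate lymphoid cells but also of epithelia, had 4.74, 4.23 and 4.59 scaled TPM at 1D and 1.63, 2.42 and 2.37 at 13D (-0.94 ± 0.24, adjusted p = 0.0394). *TCF7*, a factor of T cell precursors, had 1.299, 1.49 and 1.29 scaled TPM at 1D and 0.6605, 0.614 and 0.257 at 13D (-0.90 ± 0.25, adjusted p = 0.0486). Both were lower in every 13D library, by less than the fold threshold. The kinase *LCK*, which acts at the T cell receptor, was at 0.948, 0.389 and 1.79 and 1.56, 1.31 and 0.574, and *CD8A* stayed under 0.5 in all 6 libraries. The risen *THEMIS*, *PRKCQ* and *TAGAP* thus stood beside a T cell list with no member called higher. *CD3E* and *CD3D*, the defining chains of the T cell receptor complex, were not matched by symbol and were not analysed here. Of 12 measured myeloid genes only *FLT3* was called, and the median of the list was -0.24. This median was 0.13 without 1D replicate 2.

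**Figure D4:**
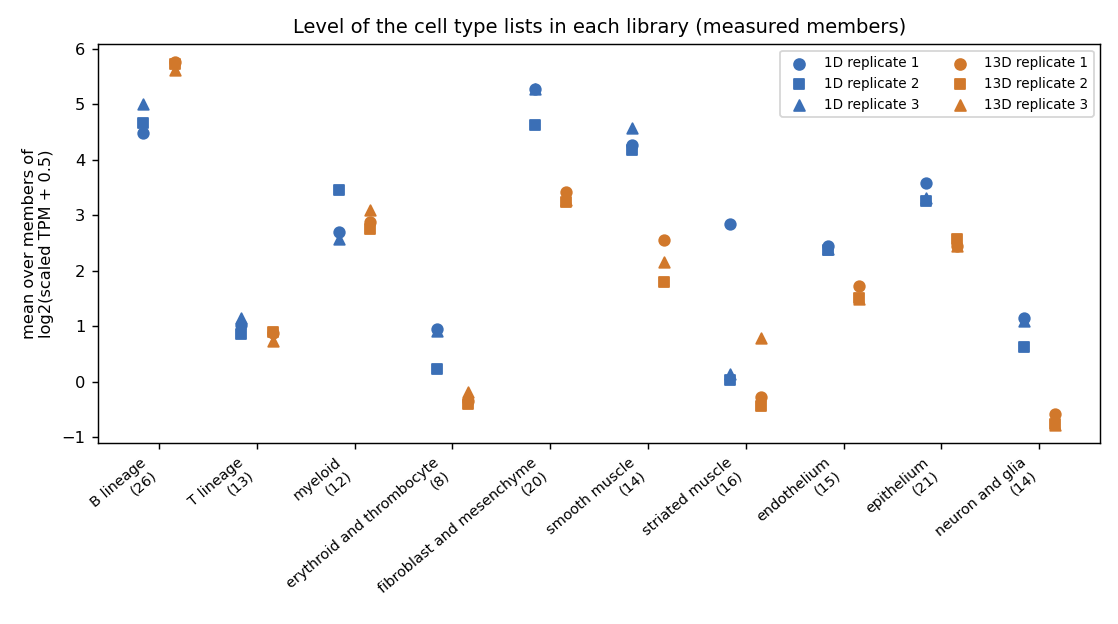
Mean over the measured members of log2(scaled TPM + 0.5) (y axis) for 10 lists of cell type markers (x axis, number of members in brackets) in each 1D (blue) and 13D (orange) library. The B lineage list is at 4.49 to 5.02 at 1D and 5.62 to 5.76 at 13D, the smooth muscle list at 4.18 to 4.58 and 1.80 to 2.55, and striated muscle markers are high in 1D replicate 1 alone, at 2.84.

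Chemokine, cytokine and survival genes were called in both directions with all 6 libraries, but few or none of these calls were left without 1D replicate 1 or any of the 13D libraries. *CXCR4*, the receptor that holds lymphocytes at CXCL12 sources, had 109, 192 and 157 scaled TPM at 1D and 289.6, 386 and 388 at 13D and rose by 1.24 ± 0.26 (adjusted p = 0.0247). *CXCR5* and the sphingosine phosphate receptor *S1PR4* (0.264 ± 0.101 to 1.04 ± 0.109 scaled TPM) rose too, whereas the scavenging receptor *ACKR4* (-1.16) and the chemokine *CCL20* (-1.07) fell. These were all 5 calls among 25 measured genes of the chemokine and homing list, whose median was 0.15. The share of falls, 2 of 25, was near the 7.53% of all mRNAs called lower. No call was left without 1D replicate 1 or without any single 13D library, and 1 rise and no fall with deposited TPM. The integrin chain *ITGA4* (23.7, 24.3 and 14.7 and 34.7, 27.8 and 47.1) had no overlap and no call (0.79 ± 0.27, adjusted p = 0.0875).

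Of 45 cytokine and TNF receptor genes 6 rose and 7 fell, with a median log2 fold change of 0.06 that became -0.01 under median-of-ratios scaling, -0.08 without 1D replicate 2 and -0.09 without 13D replicate 1. All 7 falls were lost without 1D replicate 1 or any single 13D library, where 1 to 2 rises were left, and the counts were 5 rises and 12 falls without 1D replicate 3. The rises with all libraries held *IL12RB2*, *TNFRSF13C*, *IL20RA* (1.42), the death receptor *FAS* (1.13), *IL21R* (1.12) and *IL17RA* (1.10). The falls held *IL18R1* (-1.49), the epithelial *IL22RA1* (-1.36), *TNFRSF19* (-1.33), *TNFRSF11A* (-1.22), *IL1R1* (-1.15), *IL11RA* (-1.16) and the decoy receptor *TNFRSF11B* (-1.09). *TNFRSF11A* encodes RANK, and its ligand *TNFSF11* went the other way, from 19.1, 26.98 and 30.2 to 59.4, 37.6 and 58.4 scaled TPM, a rise by 1.01. *IL16*, a cytokine that attracts lymphocytes, had 30.4, 50.6 and 38.8 scaled TPM at 1D and 96.8, 109 and 75.5 at 13D and rose by 1.23 ± 0.23. *IL10*, an anti-inflammatory cytokine, fell from 16.4, 53.2 and 8.74 to 2.94, 2.56 and 6.61, with a log2 fold change of -2.27 ± 0.62 (adjusted p = 0.0498), and its 1D libraries differed widely among themselves. Of 24 measured cytokine ligands these 3 were called, and none was called without 1D replicate 1, 13D replicate 1 or 13D replicate 2. The share of falls, 1 of 24, was under the 7.53% of all mRNAs called lower.

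Survival genes of the BCL2 family were called in opposite directions. *BCL2A1*, an inhibitor of apoptosis induced in activated lymphocytes, had 4.56, 5.26 and 7.95 scaled TPM at 1D and 20.4, 21.8 and 32.3 at 13D and rose by 1.98 ± 0.27 (adjusted p = 0.00835). *BCL2*, another inhibitor of apoptosis, had 14.6, 28.3 and 12.2 scaled TPM at 1D and 6.34, 6.03 and 6.33 at 13D and fell, with -1.39 ± 0.31 (adjusted p = 0.0276). Neither gene overlapped between the stages. *FAS* also rose and *CASP6* (-1.04) fell, and of 22 measured apoptosis regulators 3 rose and 2 fell (median 0.38). The share of falls was near the 7.53% of all mRNAs called lower. Without 1D replicate 1 or any single 13D library 1 rise and no fall were left.

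Connective tissue genes were lower at 13D, and among them was the largest fall in level. Of 20 measured fibroblast and mesenchyme markers 14 fell and none rose, with a median log2 fold change of -1.72, and of 35 collagen genes 19 fell and none rose (median -1.43). Both lists share members. *COL3A1*, the main collagen of reticular tissue, had 764, 396 and 817 scaled TPM at 1D and 124, 100.2 and 96.5 at 13D, the largest fall in level among the DE mRNAs with a symbol. *COL1A1* had 55.4, 19.2 and 54.4 scaled TPM at 1D and 3.19, 3.27 and 3.69 at 13D and *COL14A1*, a collagen that decorates fibrils, 28.4, 13.1 and 27.2 scaled TPM at 1D and 1.19, 1.37 and 1.43 at 13D. In each the 13D libraries were close to each other and far below all 1D libraries, of which replicate 2 was the lowest. The log2 fold changes were -2.56 ± 0.31, -3.34 ± 0.39 and -3.60 ± 0.32 (adjusted p = 0.00686, 0.00686 and 0.00383). Together the 35 collagen genes took 0.0919% to 0.267% of all TPM at 1D and 0.0216% to 0.0478% at 13D.

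Basement membrane collagens fell with the fibrillar ones. *COL4A5* had 84.8, 109.6 and 89.7 scaled TPM at 1D and 13.5, 16.95 and 9.65 at 13D and a log2 fold change of -2.80 ± 0.23, *COL4A6* -2.53, *COL4A1* -1.41 and *COL4A2* -1.43. The number of fallen collagens was 12, 22 and 18 without 1D replicates 1, 2 and 3 in turn and 15, 11 and 11 without those of 13D, and the number of fallen fibroblast markers was 12, 18 and 14 and then 12, 9 and 11.

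Genes that build and crosslink the matrix fell likewise, 29 of 58 measured with 1 rise and a median of -1.22. Elastin (*ELN*) went from 12.4, 7.14 and 15.6 to 1.24, 1.24 and 0.908, versican (*VCAN*) from 30.4, 24.1 and 18.98 to 3.26, 3.35 and 4.46 and the crosslinking enzyme *LOX* from 80.6, 58.8 and 46.7 to 13.4, 8.71 and 12.6. The collagen lysyl hydroxylase *PLOD2* had 53.2, 61.4 and 53.5 scaled TPM at 1D and 19.5, 17.4 and 18.8 at 13D, with narrow groups and a log2 fold change of -1.57 ± 0.15 (adjusted p = 0.00479). *SPARC*, a collagen-binding glycoprotein, had a log2 fold change of -1.42, from a mean of 277 ± 76.4 to 101 ± 10.9, and periostin (*POSTN*) one of -2.53. The only rise was *PCOLCE2* (1.16), an enhancer of procollagen processing. Among 28 matrix proteases and inhibitors 9 fell and none rose (median -0.98), led by *ADAMTS1* (23.9, 21.04 and 30.3 to 2.46, 3.06 and 1.92) and *ADAMTS12* (-1.90), with the membrane protease *MMP16* (-1.86) and the cathepsin *CTSK* (-1.81). The count of fallen matrix building and crosslinking genes became 19, 38 and 26 without 1D replicates 1, 2 and 3 in turn, and 16, 14 and 17 without 13D replicates 1, 2 and 3. That of fallen proteases and inhibitors became 1, 12 and 10 and then 1, 1 and 2. Beyond the lists, galectin 1 (*LGALS1*) was at 113, 156 and 106 and then at 9.61, 9.45 and 16.98, and annexin A2 (*ANXA2*) at 456, 430.3 and 339 and 211, 154 and 192.

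**Figure D5:**
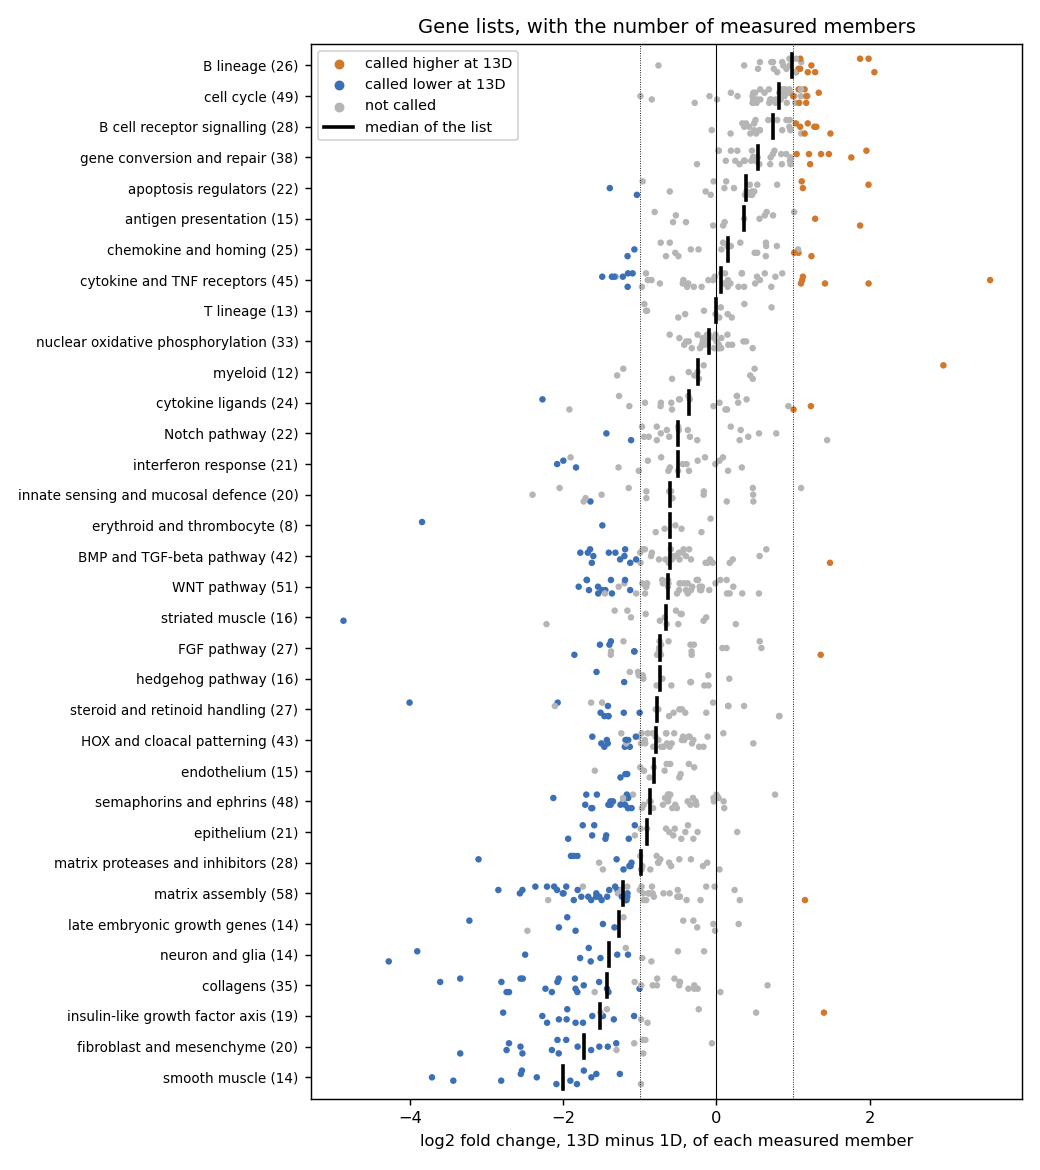
Log2 fold change of 13D over 1D (x axis) of each measured member of the 34 gene lists (rows, ordered by their median, number of members in brackets). Orange members rose, blue members fell, grey ones were not called and black bars are medians, which run from -1.996 for smooth muscle to 0.99 for the B lineage.

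Smooth muscle genes had the largest share of calls. Of 14 measured members 13 fell, with a median log2 fold change of -1.996, and the libraries did not overlap for any of the 14. *MYH11*, the smooth muscle myosin, had 136, 164 and 141 scaled TPM at 1D and 35.4, 14.02 and 17.1 at 13D. *ACTG2*, the enteric actin, had 17.9, 8.31 and 22.9 scaled TPM at 1D and 1.79, 0.465 and 0.862 at 13D, and transgelin (*TAGLN*) 80.3, 48.4 and 259 scaled TPM at 1D and 10.4, 2.35 and 14.2 at 13D. All 13D libraries lay below all 1D libraries in these genes, with 13D replicate 1 the highest at 13D for *MYH11* and *ACTG2*. The log2 fold changes were -2.81 ± 0.32, -3.43 ± 0.45 and -3.71 ± 0.74 (adjusted p = 0.00675, 0.0081 and 0.0214). *DES* (-2.55) and *MYOCD* (-1.26), the coactivator that drives the smooth muscle programme, fell as well. Leaving out 1D replicates 1, 2 and 3 one by one gave 11, 13 and 13 such members, and leaving out the 13D replicates likewise gave 9, 5 and 7.

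Striated muscle genes varied widely among the 1D squabs. Only *ACTC1*, an actin of embryonic and cardiac muscle, was called among 16 measured members, with 36.05, 6.599 and 14.4 scaled TPM at 1D and 0.0838, 0 and 0.0344 at 13D and -4.87 ± 0.54 on the log2 scale (adjusted p = 0.00641), where the 13D values are below the pseudocount. *ACTA1*, the skeletal actin, had 41.2, 2.65 and 5.75 scaled TPM at 1D and 1.100, 0.405 and 5.15 at 13D with overlap. The list level was 2.84 in 1D replicate 1 and 0.03 to 0.15 in the other 1D libraries, against -0.43 to 0.79 at 13D. The median of the list, -0.66, was 0.19 without 1D replicate 1.

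Nerve genes dropped to very low levels. Of 14 measured markers of neurons and glia 9 fell and none rose (median -1.40), and 13 did not overlap. *STMN2*, a regulator of axon microtubules, had 27.1, 7.19 and 27.8 scaled TPM at 1D and 0.426, 0.538 and 0.361 at 13D, with a log2 fold change of -4.27 ± 0.49 (adjusted p = 0.00675). *UCHL1*, an abundant neuronal ubiquitin hydrolase, had 10.6, 5.98 and 8.78 scaled TPM at 1D and 0.178, 0 and 0.08700 at 13D and *HAND2*, a transcription factor of enteric and sympathetic neurons, 2.299, 3.88 and 2.12 scaled TPM at 1D and 0.138, 0 and 0.0613 at 13D. No 13D library exceeded 0.538 scaled TPM for these genes, so the folds depend on the pseudocount. *ELAVL4* (-1.78), *CHRNA3* (-1.64) and *RET* (-1.15), the receptor on which enteric neurons depend, fell too. With one library fewer the count was 6, 11 and 10 (1D replicates 1, 2 and 3 left out in turn) or 3, 3 and 4 (13D replicates 1, 2 and 3). Transmitter genes of enteric neurons, looked up after these values were seen, had the same direction: *PENK* was at 6.13, 0.717 and 6.95 and 0.244, 0.0589 and 0.113, *VIP* at 0.499, 2.95 and 1.13 and 0, 0 and 0.162, and *NOS1* at 0.961, 0.576 and 0.634 and 0.0187, 0.0225 and 0.0201, all 3 called lower.

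Vessel and epithelial genes fell less. Of 15 measured endothelial markers 3 fell and none rose (median -0.82), among them VE-cadherin (*CDH5*, 32.8, 29.5 and 28.8 at 1D and 14.3, 10.7 and 12.6 at 13D, -1.25 ± 0.17) and the VEGF receptor *KDR* (-1.19). Of 21 epithelial markers 8 fell and none rose (median -0.90). E-cadherin (*CDH1*) had 22.9, 19.2 and 19.8 scaled TPM at 1D and 7.26, 6.91 and 7.505 at 13D and a log2 fold change of -1.45 ± 0.17 (adjusted p = 0.00686), and the epithelial transcription factors *EHF* (-1.93) and *OVOL2* (-1.62), the keratin *KRT8* (-1.74) and the junction protein *TJP3* (-1.59) fell. *EPCAM*, an epithelial surface protein, was at 224, 369 and 153 and 177, 205 and 209, overlapping and not called (-0.25 ± 0.32, adjusted p = 0.633), and is given after its values were seen. Without single libraries the epithelial count was 3, 8 and 9 (1D replicates 1, 2 and 3) and 1, 1 and 3 (13D), and the endothelial count 1, 4 and 3 and then 1, 0 and 1.

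Blood genes, 8 measured of 22 listed, together took 0.000558% to 0.00275% of all TPM at 1D and 0.000297% to 0.000361% at 13D. The globin *HBAD* had 9.38, 1.99 and 14.4 scaled TPM at 1D and was listed at 0 in each 13D library, and the thrombocyte glycoprotein *GP9* had 1.56, 0.669 and 0.871 and 0.0321, 0.0309 and 0.0291. These were the 2 calls among 8 measured erythroid and thrombocyte genes. Named for the size of their fall were a pair of clotting genes best known from liver: fibrinogen gamma (*FGG*) had 204, 422 and 343 scaled TPM at 1D and 72.3, 67.9 and 85.4 at 13D and factor X (*F10*) 15.8, 19.3 and 14.7 scaled TPM at 1D and 1.89, 1.55 and 0.8296 at 13D, with log2 fold changes of -2.04 ± 0.28 and -3.19 ± 0.28.

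Genes of the insulin-like growth factor axis were lower at most steps. Of 19 measured genes of the axis 12 fell and 1 rose, with a median of -1.51. The ligands *IGF1* and *IGF2* had 11.3, 5.17 and 4.76 scaled TPM at 1D and 1.303, 0.516 and 1.21 at 13D and 13.1, 15.5 and 22.2 scaled TPM at 1D and 3.31, 3.65 and 4.94 at 13D, with log2 fold changes of -2.27 ± 0.39 and -1.95 ± 0.26 (adjusted p = 0.0147 and 0.00827). The growth hormone receptor *GHR*, upstream of *IGF1*, fell by 2.21, and its 1D libraries spread from 7.83 to 37.4. Binding proteins *IGFBP2* (-1.74), *IGFBP3* (-1.95) and *IGFBP4* (-1.62), the protease *PAPPA* (-1.07) that cleaves some of them and its inhibitor *STC2* (-2.78) fell. The exception was *IGF2R*, the scavenger receptor that takes IGF2 to lysosomes in mammals: it had 62.2, 55.3 and 63.96 scaled TPM at 1D and 146, 157 and 180.1 at 13D and rose by 1.40 ± 0.17 (adjusted p = 0.00686). When 1D replicates 1, 2 and 3 were left out in turn, the count of falls was 6, 11 and 14, and for 13D replicates 1, 2 and 3 it was 6, 2 and 5. The rise of *IGF2R* was called in each of these fits.

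Genes of late embryonic growth fell in 6 of 14 measured cases (median -1.27), in 5, 6 and 7 without 1D replicates 1, 2 and 3 in turn and in 4, 2 and 4 without those of 13D. The list overlaps with that of the insulin-like growth factor axis, with *IGF2BP2* in both, so these falls are not all additional. Midkine (*MDK*), a heparin-binding growth factor of embryos, had 12.97, 6.84 and 17.4 scaled TPM at 1D and 0.489, 1.37 and 0.676 at 13D and a log2 fold change of -3.22 ± 0.40. The RNA-binding proteins *IGF2BP1* (1.74, 1.35 and 2.04 to 0.151, 0.144 and 0.0514), *IGF2BP2* (-2.05) and *IGF2BP3* (-1.48), which mark fetal tissue, all fell.

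Patterning ligands and their regulators were lower, with few rises. In the WNT pathway 12 of 51 measured genes fell and none rose (median -0.62), including the ligands *WNT5A* (-1.19), *WNT5B* (-1.54) and *WNT11* (-1.38), the receptors *FZD1* (-1.54), *FZD2* (-1.69) and *ROR2* (-1.69) and the inhibitors *SOSTDC1* (-1.80) and *NKD1* (-1.66). *ROR2*, a receptor for WNT5A, had 8.31, 6.63 and 7.14 scaled TPM at 1D and 2.56, 1.48 and 1.85 at 13D. Ligands, receptors and inhibitors of one pathway thus fell side by side. This count became 4, 12 and 11 without 1D replicates 1, 2 and 3 in turn, and 3, 1 and 2 without 13D replicates 1, 2 and 3.

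In the BMP and TGF-beta pathway 12 of 42 measured genes fell and 1 rose (median -0.61). The falls included the extracellular antagonists *FST* (-1.78), *FSTL3* (-1.63), *NBL1* (-1.65) and *GREM1* (-1.60), together with the ligands *BMP4* (-1.32) and *BMP3* (-1.20) and the receptor *ACVR2B* (-1.68). Another antagonist, *CHRDL1*, was the gene that rose, from 1.67, 1.195 and 1.37 to 5.54, 4.72 and 4.26 scaled TPM (1.48 ± 0.24). Leaving out 1D replicates 1, 2 and 3 one by one gave 3, 13 and 10 fallen members, and leaving out the 13D replicates likewise gave 1, 0 and 0. The rise of *CHRDL1* was not called without 13D replicate 1 or without 13D replicate 2.

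Of 27 FGF pathway genes 6 fell and 1 rose (median -0.74). The mesenchymal ligands *FGF10* (12.2, 13.6 and 6.72 to 2.92, 2.16 and 2.52) and *FGF7* (49.2, 64.1 and 38.5 to 18.9, 17.8 and 18.98) fell together with *FGFR2* (-1.07), the receptor whose epithelial form binds both, and with the feedback inhibitor *SPRY1* (-1.52). *FGF1*, a ligand of all FGF receptors, had a log2 fold change of -1.38 and *KLB*, a co-receptor for endocrine FGFs, rose by 1.36 from low levels. The hedgehog list had 2 falls of 16 (12.5%, median -0.74), *FOXF1* (-1.56), a gut mesenchyme factor, and *SCUBE1* (-1.20). The Notch list had 2 of 22 (9.09%, median -0.49), *HES4* (-1.43) and *MAML2* (-1.11). The Notch share was near the 7.53% of all mRNAs called lower. Without 1D replicates 1, 2 and 3 in turn the falls numbered 2, 10 and 6 for FGF, 1, 4 and 5 for hedgehog and 0, 3 and 2 for Notch, and without those of 13D 2, 0 and 2, 0, 0 and 0 and 0, 0 and 0.

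HOX and other position genes were mostly lower at 13D. Of 43 measured HOX and cloacal patterning genes 11 fell and none rose (median -0.79), and 29 did not overlap, all with lower 13D values. *MEIS1*, a cofactor of HOX proteins, had 85.8, 46.9 and 91.5 scaled TPM at 1D and 19.2, 29.1 and 21.8 at 13D, with a log2 fold change of -1.62 ± 0.29 (adjusted p = 0.0167). *HOXA11* had 9.93, 8.305 and 9.93 scaled TPM at 1D and 2.31, 3.05 and 3.74 at 13D and *HOXA10* 7.25, 9.801 and 8.68 scaled TPM at 1D and 2.75, 2.95 and 2.63 at 13D, and both fell. Along the HOXA cluster the log2 fold changes were -0.93 for *HOXA3*, -0.79 for *HOXA4*, -0.83 for *HOXA5*, -1.20 for *HOXA6*, -0.98 for *HOXA7*, -1.19 for *HOXA9*, -1.46 for *HOXA10* and -1.50 for *HOXA11*. The 8 genes were lower in all 13D libraries, and *HOXA6*, *HOXA9*, *HOXA10* and *HOXA11* were called. *HOXD13*, the most posterior gene of its cluster, had 23.2, 11.7 and 21.7 scaled TPM at 1D and 13.3, 13.4 and 12.7 at 13D, overlapping and not called. With one library fewer the count was 1, 15 and 11 (1D replicates 1, 2 and 3 left out in turn) or 0, 0 and 2 (13D replicates 1, 2 and 3).

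Guidance molecules for axons, vessels and migrating cells followed. Of 48 measured semaphorin, ephrin, SLIT and ROBO genes 17 fell and none rose (median -0.87). The ephrin receptors *EPHB2* (9.12, 4.19 and 10.4 to 1.09, 1.36 and 1.48) and *EPHA7* (-1.71), the semaphorins *SEMA5B* (-1.70) and *SEMA3C* (-1.15), their receptors *NRP1* (-1.15) and *NRP2* (-1.19) and the pair *SLIT2* (-1.56) and *ROBO2* (-1.62) were among them. *SEMA3C* had 40.1, 40.01 and 36.3 scaled TPM at 1D and 17.7, 18.1 and 15.8 at 13D, with narrow groups. When 1D replicates 1, 2 and 3 were left out in turn, the count was 6, 22 and 18, and for 13D replicates 1, 2 and 3 it was 3, 1 and 5.

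Steroid and retinoid genes fell in 9 of 27 measured cases with no rise (median -0.78). Androgens are known to stop bursal growth in chicken embryos. *SRD5A2*, which makes dihydrotestosterone from testosterone, had 53.9, 1.99 and 40.05 scaled TPM at 1D and 0.6497, 0.695 and 0.471 at 13D, so that its 1D libraries ran from 1.99 to 53.9. Its log2 fold change was -4.003 ± 1.04 (adjusted p = 0.0426). *AKR1D1*, a steroid 5-beta-reductase, had 97.1, 49.2 and 116 scaled TPM at 1D and 27.8, 37.96 and 27.3 at 13D and fell by 1.41. The progesterone receptor *PGR* (-1.41), the retinal reductase *DHRS3* (-1.51), the retinoic acid synthesising *ALDH1A3* (-1.41) and the retinoic acid receptor *RARA* (-1.21) fell also. This count became 2, 8 and 5 without 1D replicates 1, 2 and 3 in turn, and 1, 0 and 1 without 13D replicates 1, 2 and 3.

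Interferon response genes had a median of -0.50, with 3 of 21 measured members lower and none higher. *USP18*, an interferon-induced brake on the pathway, had 39.9, 26.4 and 13.7 scaled TPM at 1D and 5.08, 3.95 and 9.27 at 13D, *CMPK2* had 17.2, 11.9 and 7.95 scaled TPM at 1D and 2.19, 2.08 and 5.45 at 13D and *DDX60* 5.36, 3.79 and 2.34 scaled TPM at 1D and 0.254, 0.385 and 0.923 at 13D. In all 3 genes 1D replicate 1 was the highest at 1D, 1D replicate 3 the lowest, and 13D replicate 3 the highest at 13D. Their log2 fold changes were -1.997 ± 0.43, -1.83 ± 0.40 and -2.08 ± 0.36. Leaving out 1D replicates 1, 2 and 3 one by one gave 0, 2 and 6 such members, and leaving out the 13D replicates likewise gave 0, 0 and 2. In the list of innate sensing and mucosal defence 1 of 20 fell, the mucin *MUC1* (5.82, 3.704 and 4.900 to 0.4501, 1.79 and 1.66), and the median was -0.60. That share of 5% was under the 7.53% of all mRNAs called lower. No fall in this list was left without 1D replicate 1 or without any single 13D library. There were 7 falls with deposited TPM, and 7 falls with 1 rise without 1D replicate 3. No gene of 33 for nuclear oxidative phosphorylation was called by limma, 0 had an unadjusted p under 0.05, none had libraries without overlap, and the median was -0.10 (0.01 without 13D replicate 1 and 0.02 without 13D replicate 2). The smallest adjusted p values there belonged to *ATP5PB* (0.47 ± 0.25, adjusted p = 0.241) and *NDUFS4* (-0.61 ± 0.38, adjusted p = 0.313). Ribosomal protein genes took 8.85% to 12.4% of all TPM at 1D and 10.3% to 11.2% at 13D.

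By presence alone, more mRNAs were found at 1D. Above 0.5 TPM in every 1D library and in no 13D library were 167 mRNAs, and 20 had the opposite pattern. Of the 167, 103 were called lower, and of the 20, 8 were called higher. These groups were picked from the same libraries as the calls, so the direction follows from the choice. The counts of calls are thus no separate support. The first group held *UCHL1*, *ACTC1*, *HBAD*, *HAND2* and *IGF2BP1*, and the second *IL12RB2* and *KLB*. At 1 TPM the numbers were 205 and 19.

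lncRNAs gave few calls. Of 19129 tested 7 were DE (0.0366%), 1 higher (0.00523%) and 6 lower (0.0314%), with a smallest adjusted p of 0.0452 (limma, Benjamini-Hochberg over all lncRNAs). Libraries of the stages did not overlap for 24.3% of lncRNAs and 3604 (18.8%) had an unadjusted p under 0.05. The lncRNA G34703, one of those assembled in the study, had 21.8, 29.3 and 21.8 scaled TPM at 1D and 2.75, 2.89 and 2.82 at 13D and had a log2 fold change of -3.05 ± 0.22 on the log2(scaled TPM + 0.1) scale. G37638 had 14.3, 13.7 and 13.02 scaled TPM at 1D and 2.31, 2.98 and 2.55 at 13D and G37966 8.78, 7.103 and 8.14 scaled TPM at 1D and 0.6096, 1.001 and 0.694 at 13D, with -2.35 and -3.24. In these transcripts the libraries of a stage were close to each other, which the choice by smallest p favours. Listed at 0 in each 13D library were G5010 (1.36, 1.84 and 1.97 at 1D), G37543 (1.23, 3.21 and 2.61 at 1D) and GeneID:110356111 (0.688, 0.717 and 0.648 at 1D). The rise was G21959, from 0.375, 0.255 and 0.3701 to 3.88, 5.94 and 3.801 scaled TPM (3.40 ± 0.32, adjusted p = 0.0475).

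Just past the threshold were G28358 (1.41, 2.54 and 1.699 to 11.8, 14.7 and 10.5) and G28837 (2.17, 1.97 and 2.34 to 8.52, 12.6 and 10.6), both with an adjusted p of 0.055. The call count rested on the settings, since it was 0 without any 1 of the 6 libraries and 126 when all 9 libraries of the series shared one fit. Median log2 fold changes were -0.14 over the 2540 lncRNAs carrying an NCBI gene ID and 0.06 over the 16589 assembled ones. The sources used here give no function for those named above. Of the lncRNA entries 868 matched a RefSeq symbol, and 90 of these are listed there as protein coding. Over 0.1 TPM in all libraries of one stage and in none of the other were 185 lncRNAs at 1D and 58 at 13D, and over 1 TPM the numbers were 132 and 100.

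Some mRNAs varied within a stage far more than between the stages. *NTMT2*, an N-terminal methyltransferase, had 0.913, 0.203 and 29.7 scaled TPM at 1D and 0.459, 0.178 and 63.4 at 13D, with replicate 3 high at both ages. LOC102097257 had 163, 177 and 3.27 scaled TPM at 1D and 426, 392 and 8.46 at 13D, where replicate 3 was the low one at both ages, and LOC102089497 119, 79.2 and 3.74 scaled TPM at 1D and 411, 310.4 and 6.71 at 13D, with the same order. LOC102083871 reached 619, 64.95 and 211 at 13D and 92.8, 2935 and 78.2 at 1D, so that 1 library stood far above the rest. None of these was called.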

How the data were processed

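Per the deposited tables, expression is given as TPM for 13072 mRNAs and 19129 lncRNAs (2540 with an NCBI gene ID and 16589 assembled by the authors) in 9 libraries of rRNA-depleted total RNA. The authors aligned reads to the pigeon genome (build Cliv_1.0) and assembled transcripts, and the submitters' processing notes name STAR 2.6.0c and Cufflinks 2.1.1. TPM was estimated by pseudoalignment (Kallisto), and an mRNA above 0.5 TPM or a lncRNA above 0.1 TPM in any library was kept. TPM holds no read counts, so the reads behind each value and the counting error are unknown, and a count model could not be used. A value of exactly 0 may be a failed estimate.

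Scaled TPM was TPM divided by the library median over the 10027 mRNAs above 0.5 TPM in all 9 libraries, times the geometric mean of the medians. The 3 libraries of 13D were compared with the 3 of 1D with limma 3.58.1 (trend) in R 4.3.3 on log2(scaled TPM + 0.5) for mRNAs and log2(scaled TPM + 0.1) for lncRNAs, without a filter, adjusted by Benjamini-Hochberg within each class. Folds of features near the pseudocount understate the ratio. The p-values set each difference against the spread among 3 squabs an age, moderated by the spread shared across the features of the class.

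Gene symbols were looked up by NCBI gene ID in RefSeq annotation of another assembly, bColLiv1.pat.W.v2, and 12387 mRNAs matched. Since that build differs from that of the files, no coordinates are given. Gene lists were matched by symbol and described by counts and medians without a test. The members and lists were chosen with earlier results of these data known. Named by rule were the 12 largest rises and falls with a symbol and a mean of at least 5 scaled TPM in the higher stage, the 5 largest differences in level each way, up to 4 called members per direction of each list (in lists without a call, the 2 with the smallest p), lncRNAs by smallest p, genes named by the study and mRNAs with the largest range within a stage. Further names were chosen after their values were seen. Some members that the rule names are not reported here.

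Alternatives were other scalings, pseudocounts of other size, filters, all 9 libraries in one fit, no trend, replicate number as a block, and each library left out in turn.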

Additional observations from a re-analysis of the deposited data

How the results depend on the processing

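None of the 1241 DE mRNAs was called in the opposite direction under any alternative. Since the stages did not overlap for any of them, only another scaling could have turned a direction. The lack of reversals is thus no separate support. The number of DE mRNAs was 142 to 1742 when single libraries were left out (higher 37 to 472, lower 105 to 1270). With no fold change threshold 615 mRNAs were higher and 1197 lower, so the excess of falls was smaller there than with it. Other scalings, pseudocounts, filters, a fit of all 9 libraries and no trend gave 960 to 1416 DE mRNAs. With deposited TPM 1068 were called, of which 794 were among the 1241, and 27 of the 138 named calls were lost. Of 7 DE lncRNAs, 0 were left when any single library was left out (0 to 0, higher and lower alike), and 0 with deposited TPM or a larger pseudocount. There were 67 with a smaller pseudocount (14 higher, 53 lower), 73 with a filter on the mean (27 and 46), 95 with a filter on 3 of 9 libraries (36 and 59) and 126 where the 9 libraries shared one fit (54 and 72). The cause was not tested.

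With replicate number as a block, 883 mRNAs and 0 lncRNAs were DE. The labels do not say that the numbers pair squabs. Deviations of libraries with the same number correlated at 0.26, -0.16 and 0.05, and those with different numbers at -0.27 to 0.23. Such values cannot show whether libraries with the same number shared a batch or family, which was not tested. The block changed the call of 29 of the 138 named called features. Among mRNAs named for their range within a stage, which were not called, the log2 fold change turned sign for LOC102097257 (-0.57 to 3.10), LOC102083871 (-1.36 to 1.26), *NTMT2* (-1.95 to 1.80), GeneID:102094636 (-0.71 to 2.57) and LOC102089497 (-0.0057 to 3.38), given as the lowest and highest without single libraries. Precision is limited by 3 squabs an age and by the unknown read counts behind each value, which weigh most on mRNAs near 0.5 scaled TPM.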
